A study of Mus musculus with 15 samples.

Results

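The 10 genes described here serve antigen presentation by MHC class II. They are H2-Aa, H2-Ab1 and H2-Eb1, Cd74, H2-DMa, H2-DMb1, H2-Oa, H2-Ob, Ciita and Ctss. They were chosen by name, with no measured value in the rule, from the 32543 genes of the count table. All 10 passed the filter on low counts, which left 15494 genes for testing.

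RNA was sequenced from 15 subcutaneous tumors of WEHI-164, a mouse fibrosarcoma cell line, grown in wild-type female BALB/c mice. The labels used here give no age. The 3 day 0 tumors were untreated. The tumors harvested on day 1, 3, 5 or 7 (3 per day) had received poly(I:C), a double-stranded RNA analog sensed by Toll-like receptor 3, by injection into the tumor. The labels give 1 µg in 25 µL each day for a planned 6 doses, while a legend in the supplement names a higher daily dose, so the dose is uncertain. No untreated or vehicle-injected tumors of the later days were analysed here, so the effects of time and of treatment cannot be told apart. A figure legend of the study counts mice as replicates in each group, while the labels name no mouse.

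MHC class II molecules are pairs of an alpha and a beta chain that hold peptides made in endosomes and show them to CD4+ T cells. Dendritic cells, B cells and macrophages make them constitutively or when activated, and many other cells can make them after exposure to interferon gamma. The co-activator CIITA switches the genes on by docking on a complex of RFX, CREB and NF-Y proteins bound to their promoters, and the invariant chain, the protease cathepsin S and the DM and DO proteins control which peptide is loaded.

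Promoter sequences of some members are given to show letters like those of the sites on which that complex forms. RefSeq promoter windows on GRCm38.p6 were at hand for 7 of the 10 members, namely H2-Aa, H2-Eb1, H2-DMa, H2-DMb1, H2-Oa, H2-Ob and Ctss. They are those of the reference strain C57BL/6J and not of BALB/c. In the 250 bases before the start, 5 of the 7 members (H2-Aa, H2-Eb1, H2-DMb1, H2-Oa and H2-Ob) held the letters GNAAC, found in the X box that RFX binds, followed after 24 to 27 bases by GATTGG, the reversed CCAAT of the Y box that NF-Y binds. Both strands were searched, and the letters and the gap were chosen after these sequences had been seen. The same arrangement was present in 0.186% of the 32851 promoter windows of the genome, whereas GATTGG alone was present in 14.6%. In Ctss, which lacked this arrangement, the letters GAAANNGAAA of interferon-responsive elements lay 21 to 12 bases before the start, and these were present in 2.98% of the windows. The matches are descriptions of letters, and binding was not measured. The stretches of H2-DMb1 and H2-Oa overlapped the annotated gene and are not printed. Capitals mark GNAAC and GATTGG in H2-Aa (chr17:34287861-34287910, minus strand), H2-Eb1 (chr17:34305770-34305818, plus strand) and H2-Ob (chr17:34238812-34238858, plus strand), and GAAANNGAAA in Ctss (chr3:95526759-95526780, plus strand).
H2-Aa: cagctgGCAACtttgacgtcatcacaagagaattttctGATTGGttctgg
H2-Eb1: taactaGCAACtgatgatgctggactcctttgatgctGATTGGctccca
H2-Ob: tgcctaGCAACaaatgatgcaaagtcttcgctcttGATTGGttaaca
Ctss: ttaaatGAAACCGAAAtgaaag

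Levels are given as CPM, the usual per-million count after scaling to a common library size, and the libraries held between 23713090 and 31913106 counts. Members are ordered by role, and tumors are named by day and replicate. Before the results, 2 tumors need to be introduced, because they stood apart from the other 13 in the class II genes. These were day 3 replicate 1, which had the highest level of 10 of the 10 members, and day 5 replicate 1, which had the second highest level of 9 members. Day 7 replicate 3 had the lowest level of 10 of the 10 members. Day 3 replicate 1 also carried skeletal muscle transcripts, with a summed level of 3079 CPM over 7 muscle genes against 3.43 to 173 CPM in the day 0, 1, 5 and 7 tumors and 55.5 and 151 CPM in the other two day 3 tumors. Fold changes and calls of the members on day 3 are therefore given with and without day 3 replicate 1.

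The class II chains form the peptide-binding molecule itself. H2-Aa, the alpha chain of I-A, lies on chromosome 17 (34282744 to 34287823, minus strand, GENCODE M21 on GRCm38). Its level was 183, 398 and 308 CPM in the day 0 tumors, 125, 324 and 421 CPM on day 1, and 2524, 362 and 363 CPM on day 3. On day 5 it was 1271, 417 and 219 CPM, and on day 7 it was 243, 346 and 70.4 CPM. Thus 1 tumor of day 3 and 1 of day 5 lay far above all the day 0 tumors, whereas the other two day 3 tumors lay between the day 0 values. In day 3 replicate 1 the level was 8.52 times the day 0 mean, and in day 5 replicate 1 it was 4.29 times that mean.

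The beta chains followed the same tumors. H2-Ab1, the beta chain of I-A, was at 220 ± 74.3 CPM on day 0 (mean ± SD, n = 3) and at 1723, 293 and 273 CPM on day 3. H2-Eb1, the beta chain of I-E, was at 207 ± 77.3 CPM on day 0 and at 1934, 277 and 279 CPM on day 3. Both had their second highest level in day 5 replicate 1, at 910 and 956 CPM. Among the other 13 tumors, H2-Ab1 ranged from 51.3 to 349 CPM and H2-Eb1 from 46.9 to 341 CPM, and the day 3 tumors other than replicate 1 lay within or just above the day 0 range of 138 to 284 CPM for H2-Ab1 and of 126 to 280 CPM for H2-Eb1.

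Cd74, the invariant chain that escorts the chains to the endosome and blocks their groove, was at 371, 743 and 579 CPM on day 0. It was at 265, 743 and 1032 CPM on day 1, at 4483, 844 and 767 CPM on day 3, at 2344, 927 and 429 CPM on day 5, and at 419, 696 and 161 CPM on day 7. All 3 day 3 tumors lay above the 3 day 0 tumors, but 2 of them by little. Cd74 lies on chromosome 18, apart from the chains, and its order of tumors was nevertheless close to theirs, with a Pearson r of 0.992 with H2-Aa on the log2 CPM scale over 15 tumors and of 0.982 over the 13 tumors without the 2 that stood apart. These correlations share libraries and are descriptions.

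**Figure D1:**
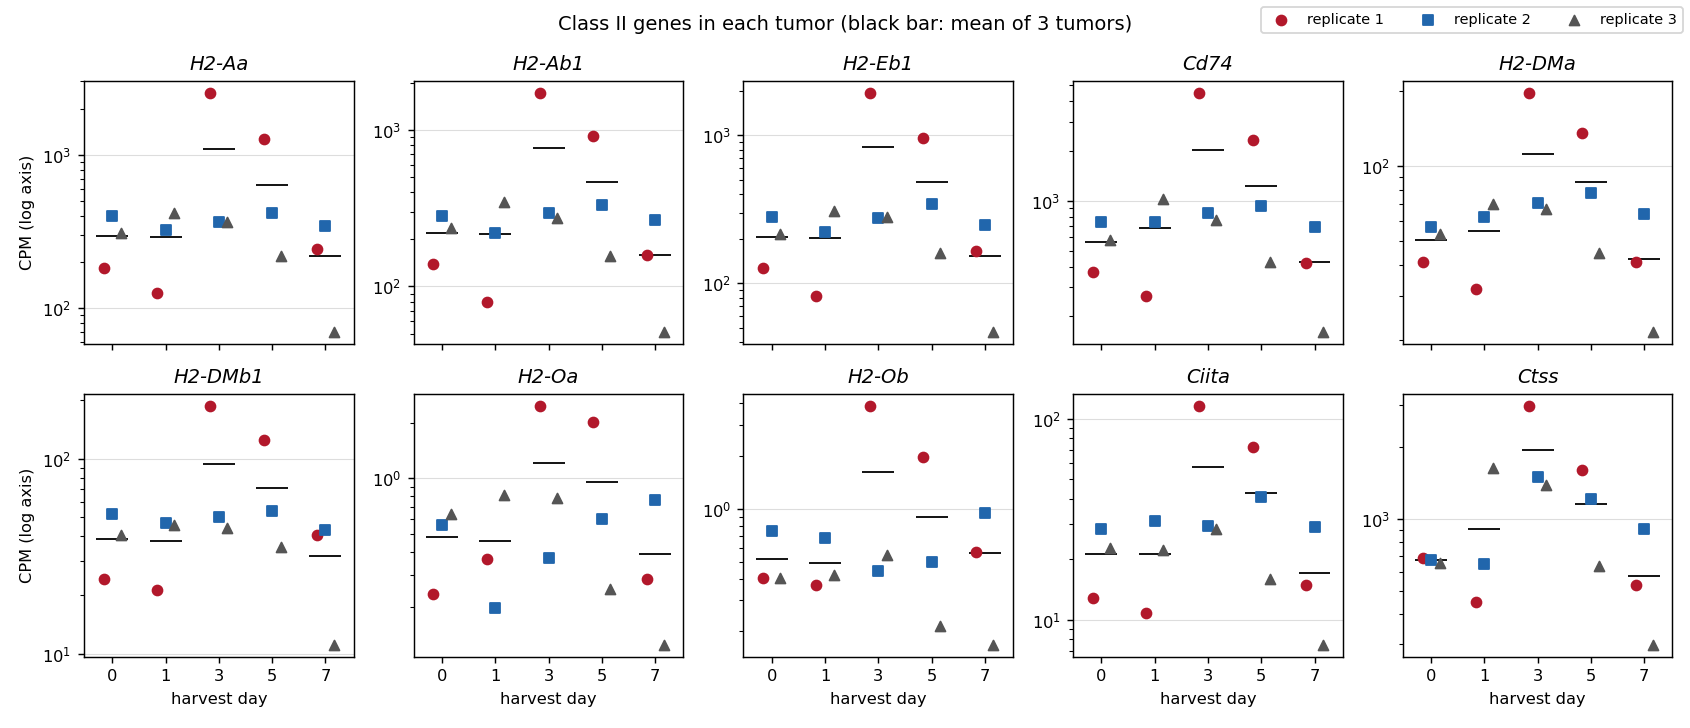
Level of each of the 10 class II genes in CPM (log axis) by harvest day. Each point is 1 tumor, its shape and color give the replicate number, and black bars are means of 3 tumors. Replicate 1 of day 3 is the highest point in every panel and replicate 3 of day 7 the lowest, with 2524 and 70.4 CPM for H2-Aa.

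H2-DMa and H2-DMb1 encode the DM heterodimer, which removes the invariant chain remnant and edits the bound peptide. H2-DMa was at 41.1, 56.9 and 52.9 CPM on day 0, at 196, 70.8 and 66.9 CPM on day 3 and at 135, 77.3 and 44.6 CPM on day 5. H2-DMb1 was at 24.3, 51.9 and 40.5 CPM on day 0 and at 186, 50.0 and 44.3 CPM on day 3. Their excess in day 3 replicate 1 over the day 0 mean was 3.89 times for H2-DMa and 4.78 times for H2-DMb1, smaller than the 7.84 to 9.35 times of the chains in that tumor. A neighbouring paralog, H2-DMb2, ranged from 9.99 to 90.5 CPM. Reads that fit both DM beta genes are divided between them by the counting, so each of their levels is uncertain.

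H2-Oa and H2-Ob encode DO, the inhibitor of DM that is best known from B cells. Both were close to the lower limit of detection. H2-Oa had 7, 15 and 16 counts on day 0, 61, 10 and 20 counts on day 3 and 55, 17 and 7 counts on day 5. H2-Ob had 12, 20 and 10 counts on day 0, 96, 12 and 14 counts on day 3 and 54, 14 and 6 counts on day 5. Both fell to 3 and 4 counts in day 7 replicate 3, where 3 counts is the limit that a count of 0 allows. Outside the 2 tumors that stood apart, no order of days could be read from these counts.

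Ciita, the co-activator, was at 12.8, 28.1 and 22.6 CPM on day 0, at 10.8, 31.1 and 22.1 CPM on day 1 and at 116, 29.2 and 28.1 CPM on day 3. On day 5 it was at 71.9, 40.7 and 15.9 CPM and on day 7 at 14.9, 29.0 and 7.48 CPM. Its range overlapped between day 0 and every later day. In day 3 replicate 1 it was 5.45 times the day 0 mean, a smaller excess than that of the 3 chains and Cd74, and in day 5 replicate 1 it was 3.39 times.

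Ctss, cathepsin S, trims the invariant chain and also serves other endosomal proteolysis. It differed from the other members in day 3 replicates 2 and 3. Their mean was 2.14 times the day 0 mean, against 0.954 (H2-Ob) to 1.43 (Cd74) times in the other members. The Ctss level was 690, 675 and 657 CPM on day 0, 450, 646 and 1642 CPM on day 1, and 2972, 1496 and 1394 CPM on day 3. On day 5 it was 1604, 1215 and 638 CPM, and on day 7 it was 529, 908 and 298 CPM. All 3 day 3 tumors had at least 1394 CPM, above all day 0 tumors, and the day 0 tumors varied little, with an SD of 16.2 CPM around a mean of 674 CPM. The second highest level was in day 1 replicate 3, at 1642 CPM, little above the 1604 CPM of day 5 replicate 1. In day 1 replicate 3 Ciita, at 22.1 CPM, was within the day 0 range.

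Compared per kilobase of the longest annotated transcript, the day 0 order was Ctss at 498 ± 12, Cd74 at 400 ± 132, H2-Ab1 at 181 ± 61.3, H2-Eb1 at 124 ± 46.3 and H2-Aa at 91.9 ± 33.5 CPM per kb (mean ± SD, n = 3). Then came H2-DMb1 at 27.7 ± 9.90, H2-DMa at 25.1 ± 4.10, Ciita at 3.53 ± 1.29, H2-Oa at 0.357 ± 0.160 and H2-Ob at 0.193 ± 0.0740 CPM per kb. Ctss and Cd74, neighbours among the 3 chains, and H2-DMb1 and H2-DMa did not differ beyond these SDs. The longest transcript of H2-Aa is 3223 bases against 1212 for H2-Ab1, and the transcript set used for counting was not stated, so the order of the chains is uncertain.

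The first comparison asks how the class II genes of treated tumors compared with those of untreated tumors on each day. On day 3, the fitted log2 fold changes of 10 of 10 members were above 0 (background 48%), with a median of 1.59 against −0.02 over all genes tested. They were 1.87 ± 0.87 (SE) for H2-Aa, 1.79 ± 0.86 for H2-Ab1, 2.0 ± 0.89 for H2-Eb1 and 1.85 ± 0.82 for Cd74. For H2-DMa the fold change was 1.14 ± 0.52, for H2-DMb1 1.26 ± 0.66, for H2-Oa 1.32 ± 0.89, for H2-Ob 1.63 ± 0.92, for Ciita 1.44 ± 0.69 and for Ctss 1.54 ± 0.52. With edgeR's quasi-likelihood test, 0 of the 10 members passed an adjusted p of 0.05 on day 3 (background 0% of genes), and the lowest adjusted p was 0.115, that of Ctss. At an unadjusted p under 0.05, 4 members were higher (background 18.3%). DESeq2 called 1 member higher, Ctss, with an adjusted p of 0.0287 (background 9.02%), and limma with tumor weights called 0 (background 4.66% higher). With all tumors kept, the limma fit with tumor weights gave a smaller median log2 fold change over the 10 members, 0.40. The groups did not overlap for 3 members, H2-DMa, Cd74 and Ctss (background 19.4%). Without the 2 tumors that stood apart the same 3 remained (background 23.2%), which was fixed in advance. Day 3 replicate 1 was the highest tumor of every member, so leaving it out could not change the lowest day 3 level. The shares called by DESeq2 and without overlap were near the background.

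Without day 3 replicate 1, the day 3 fold changes were smaller. They were 0.30 for H2-Aa, 0.37 for H2-Ab1, 0.43 for H2-Eb1, 0.52 for Cd74, 0.46 for H2-DMa and 0.28 for H2-DMb1. Ciita was at 0.44 ± 0.64, H2-Oa at 0.27 and H2-Ob at −0.06. Ctss kept the largest value, 1.10 ± 0.54, with an edgeR adjusted p of 0.395. DESeq2 then called 0 members (background 0.28% higher), and its adjusted p for Ctss was 0.391.

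**Figure D2:**
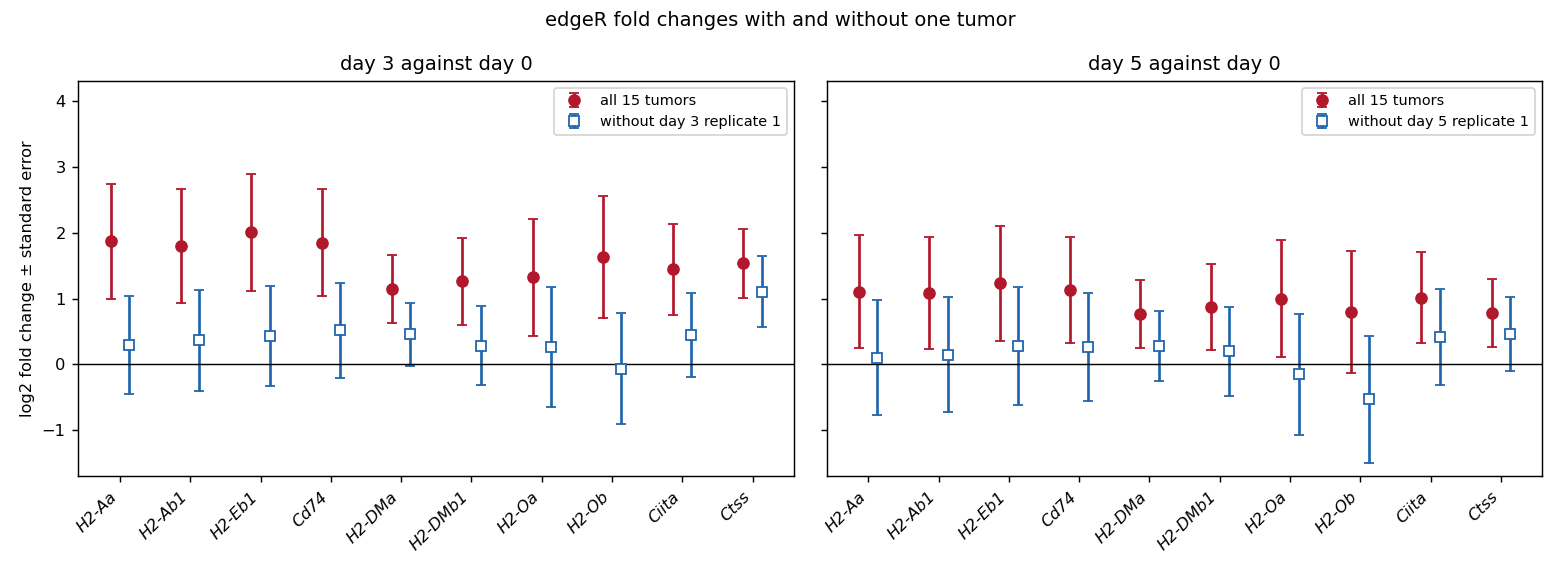
edgeR log2 fold changes against day 0 with standard errors for the 10 members on day 3 (left) and day 5 (right). Filled points use all 15 tumors and open points leave out replicate 1 of that day. For H2-Eb1 on day 3 the value went from 2.0 to 0.43, and for Ctss from 1.54 to 1.10.

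On day 5, 10 of 10 fitted fold changes were above 0 (background 50.3%), with a median of 1.01 on the log2 scale, and the highest was 1.23 ± 0.87 for H2-Eb1. edgeR called 0 members (background 0%), with 0 at an unadjusted p under 0.05 (background 1.41% higher), DESeq2 called 0 (background 0.0194% higher) and limma with tumor weights 0 (background 7.11% higher). Day 5 and day 0 overlapped for all 10 members (background without overlap 6.89% higher). Without day 5 replicate 1, the fold changes ranged from −0.53 for H2-Ob to 0.46 for Ctss. Between those lay 0.10 for H2-Aa and 0.42 for Ciita. On day 1, 4 of 10 fold changes were above 0 (background 49.9%), the median was −0.02, and the largest value was 0.44 ± 0.51 for Ctss. On day 7, the median was −0.30 and 1 of 10 values, that of H2-Ob, was above 0 (background 44.4%), with −0.47 ± 0.84 for H2-Ab1 as the lowest. Leaving out day 7 replicate 2 moved this median to −0.92, and leaving out day 7 replicate 3 moved it to 0.056, with 6 of 10 values above 0. Both edgeR (background 0% on each day) and DESeq2 called 0 members on day 1 (DESeq2 background 0.239% higher) and 0 on day 7 (DESeq2 background 0.0129% lower), and 0 were at an edgeR unadjusted p under 0.05 (background 2.18% higher on day 1 and 1.02% lower on day 7). No member was free of overlap with day 0 on day 1 (background 5.76% higher) or on day 7 (background 6.26% lower). The standard errors on these 2 days were 0.51 to 0.94 on the log2 scale.

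The comparison of day 7 with day 3 asks whether the levels of the middle of the course had passed. All 10 fold changes were below 0 (background above 0, 51.6%), with a median of −1.75 on the log2 scale. edgeR called 0 members (background 0%), with 8 lower at an unadjusted p under 0.05 (background 22.6%), and the lowest adjusted p was 0.0832, that of Ctss at −1.76 ± 0.53. DESeq2 called 7 members lower (background 15.1%), namely H2-Aa, H2-Ab1, H2-Eb1, H2-DMa, Cd74, Ciita and Ctss, with adjusted p between 0.0126 and 0.0492. limma with tumor weights called 1 member lower, Ctss (background 2.8%), with an adjusted p of 0.0482. Levels of day 7 lay below all those of day 3 for 7 members (background 18.4%). Without the 2 tumors that stood apart the same 7 remained (background 21.5%). This too was fixed in advance, because the lowest day 3 level of each member was not in day 3 replicate 1. Without day 3 replicate 1, DESeq2 called 0 of the 7 members to which it gave an adjusted p (background 0.345% lower), the chains were at −0.71 to −0.85 and Ctss was at −1.31 ± 0.54 with an edgeR adjusted p of 0.315. Without day 7 replicate 3, DESeq2 called 0 of the 5 members to which it gave an adjusted p (0.0518% of genes called lower), and without day 7 replicate 1 it called 0 of 10 (0.0388% of genes).

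A joint test of all days asks whether any day differed. edgeR called 0 members (background 0%), with 1, Ctss, at an unadjusted p under 0.05 (background 16.2%). DESeq2 called 1 member (background 7.59%) and limma with tumor weights 1 member (background 24.9%), in both tools Ctss, with adjusted p of 0.0411 and 0.0150. Without day 3 replicate 1, DESeq2 called 0 members (background 1.17%), and its adjusted p for Ctss was 0.521. It also called 0 without any one day 0 tumor, day 1 replicate 2, day 5 replicate 2, or day 7 replicate 1 or 3 (background 1.44% to 4.32%).

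The 3 chains and Cd74 kept narrow ratios to each other while their levels ranged widely. H2-Aa spanned 35.9-fold from its lowest to its highest tumor, and H2-Eb1 41.2-fold. Over the same tumors the ratio of H2-Ab1 to H2-Aa in CPM ranged only from 0.637 to 0.829, that of H2-Eb1 to H2-Aa from 0.650 to 0.817, and that of Cd74 to H2-Aa from 1.72 to 2.45. The ratio of H2-Eb1 to H2-Aa was 0.763 to 0.769 in the 3 day 3 tumors and 0.687 to 0.703 in the 3 day 0 tumors. The mean log2 ratios were −0.38 and −0.52. This difference was noticed among several ratios and was not tested.

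Ratios of Ctss, Ciita and the DM and DO chains ranged more widely. The ratio of Ctss to H2-Aa, chosen after the values had been seen, ranged from 1.18 in day 3 replicate 1 and 1.26 in day 5 replicate 1 to 4.22 in day 7 replicate 3. It was at 3.84 to 4.13 in the other two day 3 tumors and at 3.9 in day 1 replicate 3. It was also at 3.77 in day 0 replicate 1 and at 3.58 in day 1 replicate 1. The ratio of Ciita to Cd74 was lowest in day 1 replicate 3, at 0.0215, and next lowest in day 3 replicate 1, at 0.0258, against 0.0307 to 0.0468 elsewhere. The ratio of H2-DMb1 to H2-DMa ranged from 0.519 to 0.986, of H2-Ob to H2-DMb1 from 0.00819 to 0.0236, and of H2-Oa to H2-DMa from 0.0044 to 0.0155. The DO ratios rest on as few as 3 counts in a tumor.

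**Figure D3:**
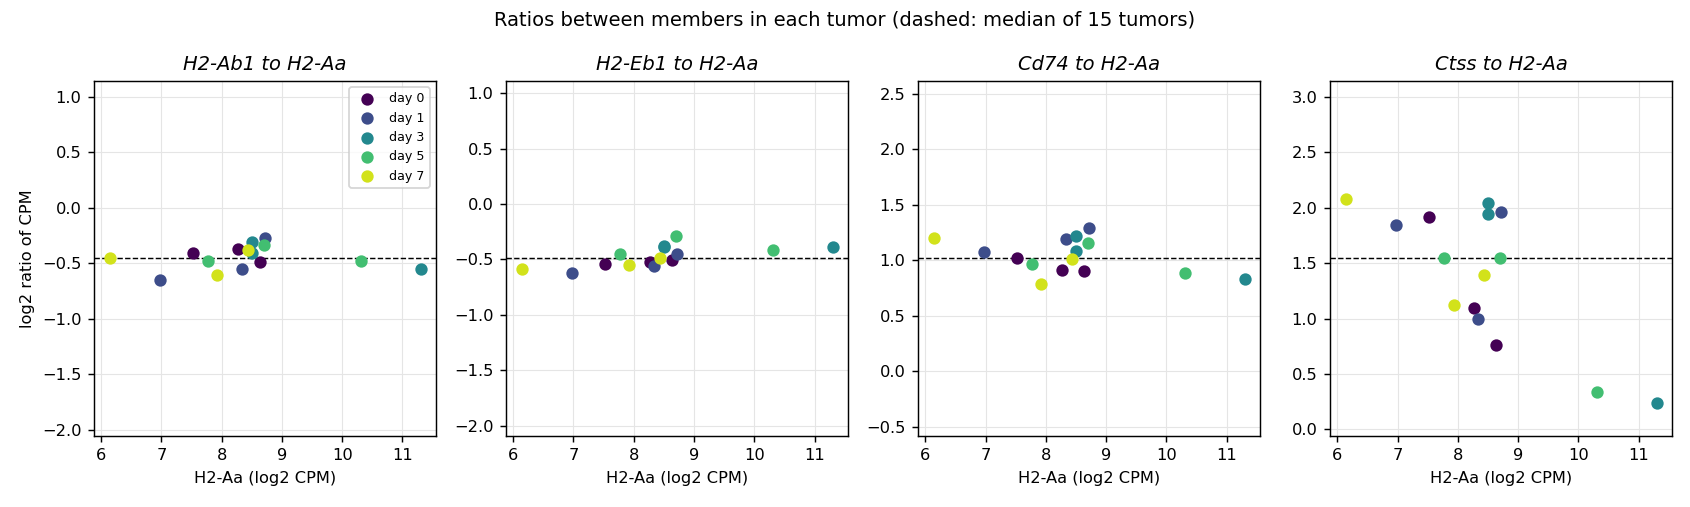
Ratios of H2-Ab1, H2-Eb1, Cd74 and Ctss to H2-Aa (log2 of the CPM ratio) against the H2-Aa level (log2 CPM). Each point is 1 tumor, colored by harvest day, and the dashed line is the median of 15 tumors. The first 3 ratios stay within 1 log2 unit over the whole H2-Aa range, whereas the Ctss ratio is lowest, at 1.18 and 1.26 on the linear scale, in the tumors with the most H2-Aa.

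Genes with a pattern most like that of the chains were ranked by Pearson r with the mean log2 CPM of H2-Aa, H2-Ab1, H2-Eb1 and Cd74 over 15 tumors, among 13497 genes with a mean of at least 1 CPM. The 10 most alike non-members were H2-Ea-ps (r = 0.995), H2-DMb2 (0.981), Cd86 (0.974), Plbd1 (0.971), Sdr42e1 (0.964), Kazn (0.963), Pde4b (0.962), Tmem50b (0.961), Mag (0.961) and Entpd1 (0.959). Cd86 is a co-stimulatory ligand of antigen-presenting cells, and Entpd1 encodes CD39. Ciita had an r of 0.974 and Ctss of 0.902. Over the 13 tumors without the 2 that stood apart, 6 of these 10 genes were still among the 10 most alike, with H2-Ea-ps at 0.988 and Cd86 at 0.965. By Spearman's rank correlation only 1 of the 10, H2-Ea-ps, was shared. H2-DMb2 ranked 318 by that measure, so the order below H2-Ea-ps is not firm.

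H2-Ea-ps is the alpha chain partner of H2-Eb1. The annotation of the reference strain, which does not make this chain, lists it as a polymorphic pseudogene, and BALB/c mice are known to make it. It had 682 to 24856 counts in each tumor. Its level was 82.8, 168 and 130 CPM on day 0, 1001, 150 and 151 CPM on day 3 and 538, 187 and 98.2 CPM on day 5. Its log2 fold change on day 3 was 1.78 ± 0.86, and 0.26 without day 3 replicate 1, like that of its partner in both cases. H2-Eb2, another beta gene of the region, had at most 4 counts in any tumor and was not tested.

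The genes of the class II interval of chromosome 17 did not all move together. Between H2-Oa and H2-Ea-ps (34092340 to 34344645 on GRCm38), 252 kb hold 17 genes of the table, 15 of them tested and 7 of them members. Psmb9, Tap1, Psmb8 and Tap2, which serve class I presentation, lie between the DM genes and H2-Ob. Their highest level was in day 1 replicate 3, at 286, 574, 489 and 367 CPM, and it was 2.22 to 2.92 times their lowest. In day 3 replicate 1 they were at 206, 435, 382 and 238 CPM, against 157, 305, 312 and 207 CPM for the mean of day 0. Their day 3 log2 fold changes were 0.52 ± 0.24 for Psmb9, 0.58 ± 0.26 for Tap1, 0.44 ± 0.21 for Psmb8 and 0.45 ± 0.28 for Tap2. Brd2, which lies beside H2-DMa, ranged only from 254 to 350 CPM, with a day 3 change of 0.01 ± 0.10.

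**Figure D4:**
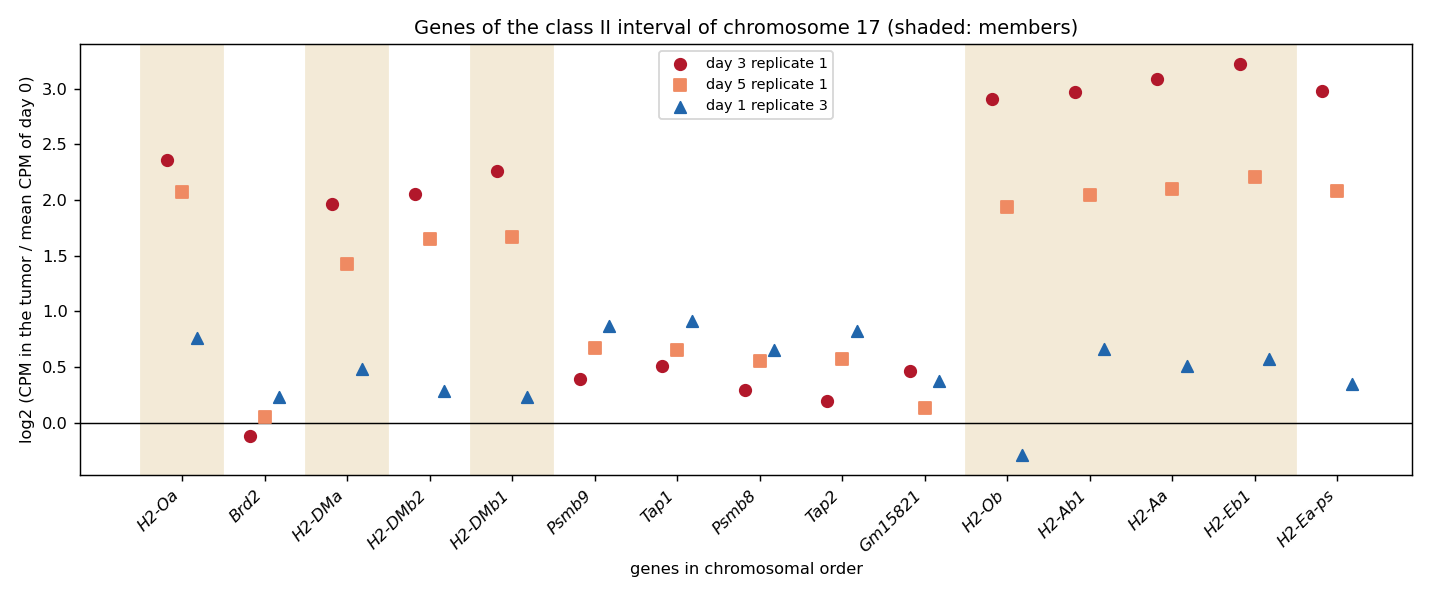
Level in 3 single tumors relative to the mean of the 3 day 0 tumors (log2 of the CPM ratio) for the 15 tested genes of the class II interval, in chromosomal order but not to scale. Shaded genes are members. Class II genes are highest in day 3 replicate 1, whereas Psmb9, Tap1, Psmb8 and Tap2 are highest in day 1 replicate 3.

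The transcripts of the proteins on which CIITA docks were a separate list. Of its 7 RFX, NF-Y and CREB genes, edgeR and DESeq2 called 0 on day 3, with 2 lower at an edgeR unadjusted p under 0.05 (background 11.7%) and a median log2 fold change of −0.16. The gene with the lowest p, Nfyb, was at −0.26 ± 0.12 with an edgeR adjusted p of 0.158. Rfx5 ranged from 36.3 to 63.0 CPM over all tumors and had its lowest level in day 3 replicate 1, the tumor with the most Ciita.

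The route from interferon gamma to Ciita gave another order of tumors. Ifng, the cytokine itself, was at 1.65, 2.05 and 2.72 CPM on day 0, 5.56, 8.31 and 5.29 CPM on day 3 and 6.44, 6.19 and 1.37 CPM on day 5. It was also at 6.19 CPM in day 1 replicate 3. All 3 day 3 tumors lay above day 0, and the highest was replicate 2, in which Ciita was at 29.2 CPM. The day 3 log2 fold change of Ifng was 1.58 ± 0.72 with all tumors and 1.67 ± 0.79 without day 3 replicate 1 (edgeR adjusted p = 0.163 and 0.387).

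Of the 9 genes listed for this route (among them Ifng, its receptors and kinases, Irf1, Usf1 and Socs1), edgeR called 0 on day 3 and DESeq2 called 1 higher (background 9.02%), the receptor gene Ifngr1 at 0.83 ± 0.29. Without day 3 replicate 1, Ifngr1 was at 0.36 with a DESeq2 adjusted p of 0.445, and DESeq2 called 0 of the list. Their median log2 fold change was 0.40 with all tumors and 0.36 without day 3 replicate 1, whereas the median of the class II members was 1.59 and 0.40. On day 7 against day 3, DESeq2 called 3 of the 9 lower (background 15.1%), among them Ifng at −2.06 ± 0.73, and 0 of those given an adjusted p without day 3 replicate 1.

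Nlrc5, the co-activator of class I genes and a relative of Ciita, ranged from 145 to 305 CPM and was highest in day 3 replicate 3. Its day 3 log2 fold change was 0.38 ± 0.20, and 0.49 ± 0.22 without day 3 replicate 1. Of Nlrc5, B2m, H2-K1 and H2-D1, edgeR and DESeq2 called 0 on day 3, with 2 higher at an edgeR unadjusted p under 0.05 (background 18.3%). H2-K1, with the lowest p, was at 0.54 ± 0.21. On day 7 against day 3, DESeq2 called 4 of these 4 lower (background 15.1%). Without day 3 replicate 1 it called 1, Nlrc5, with an adjusted p of 0.0412 (background 0.345% lower). Class I chains were highest in day 1 replicate 3, not in the tumors with the most class II RNA.

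Endosomal proteases and their partners are the other genes of the compartment in which Ctss works. Of 10 genes listed (cathepsins, legumain, the thiol reductase Ifi30 and cystatins), edgeR called 0 on day 3, with 9 higher at an unadjusted p under 0.05 (background 18.3%), and DESeq2 called 7 higher (background 9.02%). Ctsd, which had the lowest p, was at 510, 462 and 465 CPM on day 0 and at 1965, 975 and 849 CPM on day 3, so that all 3 day 3 tumors were above day 0. Its log2 fold change was 1.40 ± 0.38, with a DESeq2 adjusted p of 0.0140. The median of the list was 1.17 with all tumors and 0.92 without day 3 replicate 1, when DESeq2 called 0 of the list. On day 7 against day 3, DESeq2 called 9 of the 10 lower (background 15.1%), and 0 of those given an adjusted p without day 3 replicate 1.

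Of 6 genes for co-stimulation and class II turnover (Cd40, Cd80, Cd86, Cd83, Icosl and March1), edgeR called 0 on day 3 and DESeq2 called 2 higher (background 9.02%). Icosl had the lowest p, at 0.85 ± 0.24. Without day 3 replicate 1, DESeq2 called 0, and the median of the list fell from 0.93 to 0.47. Cd4 and Lag3, receptors for class II on T cells, were not called by edgeR or DESeq2 on day 3. Both were higher at an edgeR unadjusted p under 0.05 (background 18.3%). Lag3, with the lower p, was at 1.76 ± 0.70, and at 1.25 without day 3 replicate 1. Cd4 was at 74.9, 14.4 and 10.6 CPM on day 3 and at 6.61 to 7.15 CPM on day 0, and was thus highest in the same tumor as the class II genes.

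Markers of several cell types moved with the class II genes, and their part in the result was not tested. In bulk tumors, fewer cells of a type and less RNA per cell cannot be told apart. The 2 tumors that stood apart were picked by their class II levels. The share of all genes with their highest levels there is not given, so the counts of marker genes below are descriptions. Day 3 replicate 1 also had the highest level of 7 of 7 muscle genes and 6 of 6 adipocyte genes, but of 0 of 4 keratinocyte genes. Of 8 T cell genes, 8 had their 2 highest levels in the 2 tumors with the most class II RNA, and their summed level was 251 and 152 CPM there against 12.8 to 82.7 CPM in the other 13. Of 10 dendritic cell genes, 9 were among their 2 highest levels in each of these tumors. Flt3 was at 11 and 6.74 CPM against 0.752 to 2.65 CPM in the others, and Siglech, of plasmacytoid dendritic cells, at 25.2 and 15.3 CPM against 0.502 to 5.82 CPM. The summed dendritic cell level, 415 and 457 CPM against 324 to 385 CPM, is mostly Fscn1, at 246 CPM or more, in every tumor but day 3 replicate 1, where Itgax at 195 CPM exceeded Fscn1 at 123 CPM.

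Among B cell markers, Ms4a1 was at 2.54 and 1.02 CPM in the 2 tumors and at 0.239 to 1.21 CPM in the others. Cd22 was higher, at 60.6 and 20.1 CPM against 2.13 to 16.4 CPM, and Cd79b was at 22.8 CPM in day 3 replicate 1 only, against 2.12 CPM in day 5 replicate 1 and at most 3.46 CPM in the others. The summed level of 8 B cell genes was 98.1 and 28.3 CPM against 5.6 to 23.9 CPM. Cd22 made up most of this sum in the 2 tumors. Pax5 was at 0.805 and 0.512 CPM against 0.223 to 2.07 CPM in the others. Fcer2a was at 1.49 and 0.805 CPM against 0.534 to 1.75 CPM. Of the 8 genes, 6 were among their 2 highest levels in day 3 replicate 1 and 4 in day 5 replicate 1. The macrophage sum did not single out both tumors. This summed level was 7487 CPM in day 3 replicate 1, the highest, but 3148 CPM in day 5 replicate 1, within the 1413 to 3883 CPM of the other 13. Adgre1, the gene of the F4/80 antigen, was at 467 and 160 CPM against 55.8 to 247 CPM, whereas Csf1r was at 912 and 385 CPM against 124 to 321 CPM. Monocyte genes summed to 855 CPM in day 3 replicate 1 and to 610 CPM in day 5 replicate 1, against 481 to 801 CPM. Among them Ccr2 was highest in these 2 tumors, at 290 and 187 CPM against 42.3 to 175 CPM, and Vcan was at 163 and 195 CPM against 190 to 404 CPM.

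Endothelial genes were high in both tumors, with a summed level of 487 and 272 CPM against 74.7 to 223 CPM, and with 5 and 4 of 5 genes among their 2 highest levels there. Muscle genes and some, but not all, of the listed lymphoid stroma genes separated the 2 tumors from each other. Acta1 of skeletal muscle was at 894 CPM in day 3 replicate 1 and at 0.0732 CPM, or 2 counts, in day 5 replicate 1. Ccl21a, made by lymphoid stroma and lymphatic vessels, was at 53.3 CPM in day 3 replicate 1 and had 0 counts in day 5 replicate 1, which allows up to 0.11 CPM. Cxcl13 and Lyve1 of the same list were also higher in day 3 replicate 1 than in day 5 replicate 1. Cr2 differed little, with 13 and 10 counts, and Madcam1 went the other way, with 4 and 11 counts. The adipocyte genes summed to 273 and 59.3 CPM against 9.57 to 45 CPM. Collagen genes were high in both, with Col1a1 at 5818 and 2194 CPM against 487 to 1529 CPM. Vim, abundant in fibrosarcoma cells, was at 4085 to 5165 CPM in the other 13 tumors, at 4634 CPM in day 5 replicate 1 and at 2763 CPM in day 3 replicate 1. Keratinocyte genes were highest in day 3 replicate 3, with Krt14 at 18.3 CPM.

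Day 7 replicate 3, with the least class II RNA, also had the lowest summed level of T cell genes at 12.8 CPM, of B cell genes at 5.6 CPM, of macrophage genes at 1413 CPM and of endothelial genes at 74.7 CPM. The sums of skeletal muscle and adipocyte genes were lowest there too, at 3.43 and 9.57 CPM. Those of dendritic cell and monocyte genes were lowest in other tumors. The library of day 7 replicate 3 was the smallest, at 23713090 counts. H2-K1, at 825 CPM, had its lowest level there too.

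**Figure D5:**
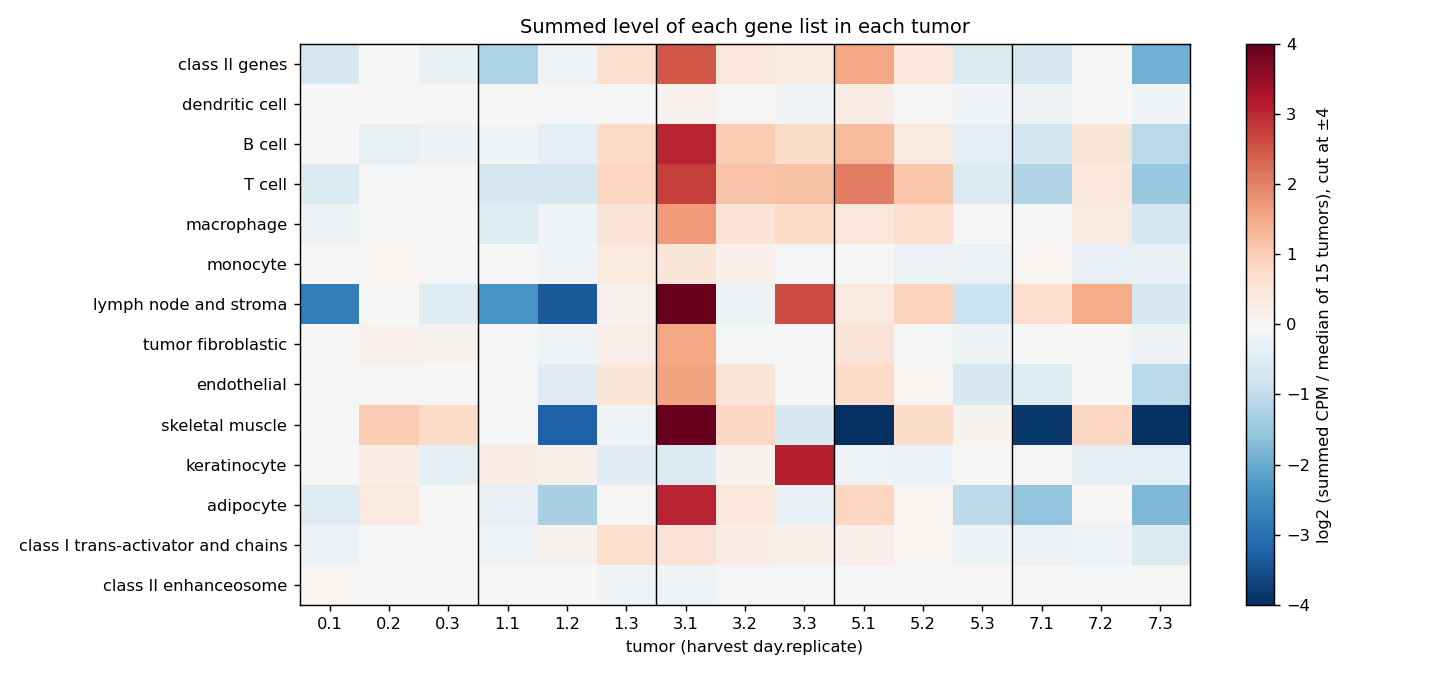
Summed CPM of each gene list in each tumor, as log2 of the ratio to the median of 15 tumors, with the color scale cut at ±4. Columns are tumors named by harvest day and replicate. Day 3 replicate 1 and day 5 replicate 1 are high in class II, T cell and B cell genes, with T cell sums of 251 and 152 CPM, but only day 3 replicate 1 is high in skeletal muscle genes. The dendritic cell sum is mostly Fscn1 in every tumor but day 3 replicate 1. The B cell sum is mostly Cd22 in day 3 replicate 1 and day 5 replicate 1.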

How the data were processed

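RNA of 15 tumors was sequenced as poly(A) single-end libraries. The authors deposited estimated counts per gene, made with kallisto 0.43.0 and tximport on mm10 (GRCm38) after quality checks with FastQC 0.11.3. The transcript set is not given in the sources used here. Reads shared by near-identical genes are split by the pseudoalignment, which makes the levels of such genes uncertain. The deposited counts were rounded and scaled by TMM, and genes above 0.366 CPM in at least 3 tumors were kept. The 32544 entries held 1 date in place of a gene name, which was left out (at most 0.0268% of a library).

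All 15 tumors were fitted together with the quasi-likelihood test of edgeR 4.0.16 (R 4.3.3), with day as the factor and Benjamini-Hochberg adjustment over all 15494 genes, at a threshold of 0.05. Log2 CPM used a prior count of 2. The script was tested on simulated data. Alternatives were DESeq2 1.42.0, limma 3.58.1 voom with a weight for each tumor, other size factors, no filter, a replicate term, the 2 days of a comparison alone, and each tumor left out. Leaving out both tumors that stood apart, DESeq2 with each tumor left out, the Ctss ratios and the lists without day 3 replicate 1 were added after seeing the data. All members were named. In each other list the gene with the lowest p on day 3 was named, with Ifng, Nlrc5 and the other class II region genes in any case. Rfx5, Cd4 and the marker genes were named after their values had been seen. The members and lists were chosen with earlier results of these data known. The libraries held 23713090 to 31913106 counts. The upper limit for a gene with 0 counts was set at 3 counts, which is 0.0940 to 0.127 CPM. It covers counting error only. Gene positions and transcript lengths are from GENCODE M21, and promoter windows from RefSeq. A few genes of the lists are not reported here.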

Additional observations from a re-analysis of the deposited data

How the results depend on the processing

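edgeR called 0 members in each comparison under TMM, RLE size factors, no filter, the replicate block and the 2 days alone. DESeq2 called 1 member on day 3, 7 on day 7 against day 3 and 1 in the joint test, and limma voom with tumor weights 1 on day 7 against day 3 and 1 in the joint test. With 1 tumor left out, edgeR called 0 to 1 on day 7 against day 3 (the 1, Ctss, without day 3 replicate 3), and DESeq2 0 to 6 on day 3 (0.0388% to 16.9% of all genes higher), 0 to 8 on day 7 against day 3 (0.0388% to 21% lower) and 0 to 3 in the joint test (1.17% to 15.3%). DESeq2 called 0 on day 3 without any one of the day 0 tumors or without day 3 replicate 1, and 5 and 6 with replicates 2 and 3 of day 3 left out in turn (15.1% and 16.9% of all genes). The direction of a log2 fold change turned in some fits with tumors left out. On day 1 against day 0 it ranged from −0.39 to 0.33 for H2-Aa, from −0.54 to 0.37 for H2-Ab1, from −0.45 to 0.35 for H2-Eb1, from −0.094 to 0.40 for H2-DMa, from −0.29 to 0.25 for H2-DMb1, from −0.72 to 0.31 for H2-Oa, from −0.38 to 0.27 for H2-Ob, from −0.16 to 0.65 for Cd74, from −0.37 to 0.33 for Ciita, from −0.30 to 0.76 for Ctss. On day 3 against day 0 it ranged from −0.068 to 2.09 for H2-Ob. On day 5 against day 0 it ranged from −0.15 to 1.45 for H2-Oa, from −0.53 to 1.25 for H2-Ob. On day 7 against day 0 it ranged from −0.68 to 0.060 for H2-DMa, from −0.59 to 0.11 for H2-DMb1, from −1.19 to 0.14 for H2-Oa, from −0.48 to 0.56 for H2-Ob, from −0.92 to 0.052 for Ciita, from −0.71 to 0.092 for Ctss. On day 7 against day 3 it ranged from −2.11 to 0.21 for H2-Ob. With the replicate number as a block, the day 1 values of H2-Aa, H2-Ab1, H2-Eb1 and H2-DMb1 became 0.082, 0.11, 0.10 and 0.000458, and the day 7 value of H2-Ob −0.057. Residuals of tumors with the same number correlated between −0.70 and 0.61. With different numbers they reached −0.66 (day 3 replicate 3 with day 7 replicate 2) and 0.68 (day 1 replicate 3 with day 7 replicate 2). These ranges are alike, so they cannot decide whether the numbers pair the samples. With voom, the day 1 values of H2-DMa, H2-Ob, Cd74, Ciita and Ctss became −0.017, 0.13, −0.051, −0.018 and −0.11, and the day 7 value of H2-Ob −0.37. The cause of these turns was not tested. Of the other alternative fold changes, 1039 kept their direction and side of the threshold, and 10 newly passed it. This tally leaves out the DESeq2 fits with tumors left out, whose calls are given above. Ratio medians moved by less than 1 SD with a prior count of 0.5 or unscaled library totals. H2-Oa and H2-Ob are limited by depth.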
